A study of Mus musculus with 8 samples.

Results

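The genes described here are 10 members of the fibroblast growth factor (FGF) pathway: the ligands Fgf8, Fgf9, Fgf10, Fgf15 and Fgf18, the receptors Fgfr1, Fgfr2 and Fgfr3, and the inhibitors Spry1 and Spry2. They were chosen by name, with earlier results of these data known. A gene was read from the probe sets, the groups of short oligonucleotides on the array, that were annotated to its symbol alone, and its brightest probe set over all arrays stood for it. The array held 18193 genes by this reading. All 10 members were among the 13543 genes that passed a filter on low values, which asked for an intensity above 19.4 on at least 2 of 8 arrays.

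RNA of mouse embryos was measured on 8 Affymetrix arrays to compare FAK mutants with controls. FAK, or focal adhesion kinase, relays signals from integrins where cells hold on to matrix. There were 4 origins with 1 mutant and 1 control array each: p75-sorted cranial neural crest cells of E11.5, and origins that the labels call OFT, LM and UM. The labels do not spell out OFT, LM or UM, and these names are kept as they stand. Each p75 array came from 3 pooled embryos, dissected at the head and thorax, whereas the number and day of the embryos behind the other 6 arrays are given only through the series title, which names E11.5. The allele of the FAK mutants, any Cre driver, the strain and what the controls carry are not given in the sources used here. The targeted gene was not analysed here, so the genotype labels were not checked against it.

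FGF ligands are secreted proteins that bind receptor tyrosine kinases at the cell surface together with heparan sulfate and signal largely through RAS and the MAP kinases. Sprouty proteins are made in response to this signal and dampen it inside the cell, so that their transcripts serve as readouts of the pathway as well as brakes on it. In the embryonic face, FGF8 from the epithelium patterns the crest-derived mesenchyme of the jaws, and FGF8 and FGF10 mark the heart progenitors that build the outflow tract.

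Spry1 and Spry2 are close relatives whose array values are set side by side in what follows, and the 250 bases before the start of each are shown for that reason. The sequences are from RefSeq on GRCm38.p6, read in the direction of the gene. The window of Spry1 is chr3:37639697-37639946 on the plus strand, and that of Spry2 is chr14:105896820-105897069 on the minus strand. Capitals mark a GC box, GGGCGG on either strand.
Spry1: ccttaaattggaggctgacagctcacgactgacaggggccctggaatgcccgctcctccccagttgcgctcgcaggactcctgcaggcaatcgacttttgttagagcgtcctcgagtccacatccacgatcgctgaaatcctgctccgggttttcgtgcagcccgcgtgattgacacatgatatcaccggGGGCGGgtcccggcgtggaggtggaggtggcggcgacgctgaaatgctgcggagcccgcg
Spry2: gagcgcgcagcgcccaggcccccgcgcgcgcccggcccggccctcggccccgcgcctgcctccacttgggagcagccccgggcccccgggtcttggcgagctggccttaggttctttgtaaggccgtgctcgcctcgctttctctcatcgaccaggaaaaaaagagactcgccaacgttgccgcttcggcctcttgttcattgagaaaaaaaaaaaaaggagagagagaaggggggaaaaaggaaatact
Spry1 held 1 GC box and Spry2 held none. In all, 7 members had an entry, with 8 windows between them, of which 5 held a GC box, against 32.74% of 32851 windows of this length. The letters CCGGAAG, 1 form of the site of ETS factors such as ETV4 and ETV5, and the TATA box TATAAA were searched on both strands as well. They were in 0 of the 8 windows, against 6.91% and 12.37% of all windows. Other and shorter forms of the ETS site were not searched. A match is a run of letters and was not tested as a site.

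Markers of neural crest were high on the p75 arrays. Ngfr, which encodes p75, had an intensity of 1422 in the p75 mutant and 1043 in the p75 control, against 47.0 to 149 on the other arrays, and Sox10, a transcription factor of migratory and glial crest, had 1620.4 and 1512, against 25.3 to 57.5. OFT arrays had summed heart muscle markers of 22065 in the mutant and 19141 in the control, against 704 to 1071 in LM and 71.4 to 136 in UM. The p75 arrays stood apart in 1 sign of RNA quality: their ratio of 3' to 5' control signal for Gapdh was 4.91 in the mutant and 2.82 in the control, against 0.700 to 0.986 elsewhere, while that for Actb was 1.65 and 1.57, against 1.42 to 1.94. The LM mutant correlated at 0.983 with the UM control and at 0.981 with the LM control over log2 values. Of the p75 arrays, the mutant alone has a label saying that its RNA extraction was advised for small samples, and the labels do not say whether the other arrays were extracted in this way.

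Fgf8, the ligand of jaw and heart progenitor patterning, was brightest in UM. Its intensity was 40.5 in the UM mutant and 27.4 in the UM control, and these were the 2 arrays on which it passed the filter level. In LM it was 10.9 in the mutant and 3.03 in the control. It was 1.87 and 0.838 in the p75 mutant and control, and 0.725 and 0.470 in the OFT mutant and control. The UM arrays did not overlap with any others. The LM arrays did not overlap with the p75 or OFT arrays either, but all of these values lay below the filter level. Here and below, the share of all genes whose origins separate in this way was not counted, so such separation is a description.

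Fgf9, a ligand made by many epithelia and acting on mesenchyme, was above the filter level on all 8 arrays. Its intensity was 89.7 and 64.1 in the p75 mutant and control, 43.1 and 48.1 in OFT, 54.6 and 55.9 in LM and 84.6 and 53.4 in UM. Both OFT arrays lay below the other 6, and both LM arrays below the p75 arrays, while the UM arrays overlapped with LM and with p75.

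Fgf10, a mesenchymal ligand that signals to neighbouring epithelia, was dim: 8.55 and 14.3 in the p75 mutant and control, 9.20 and 15.8 in OFT, 30.9 and 26.4 in LM and 25.4 and 19.2 in UM. Both LM arrays lay above all others, and both UM arrays above the p75 and OFT arrays. The UM control and the p75 and OFT arrays were below the filter level. Fgf15, the mouse counterpart of human FGF19, ranged widely between the arrays of 1 origin, at 26.3 and 12.7 in the p75 mutant and control, 7.27 and 3.57 in OFT, 15.3 and 32.3 in LM and 23.2 and 3.64 in UM. Fgf18, a ligand of skeletal growth, had 40.6 and 21.6 in the p75 mutant and control, 17.3 and 9.90 in OFT, 21.2 and 16.9 in LM and 11.4 and 7.17 in UM. The p75 arrays held the 2 highest values of Fgf18, and the mutant array was the higher of each pair. Fgf10, Fgf15 and Fgf18 were each above the filter level on 3 of 8 arrays.

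Among the receptors, Fgfr1, which is broadly used in mesenchyme and crest, had an intensity of 245 in the p75 mutant and 224 in the p75 control. It had 285 and 413 in the OFT mutant and control, 354 and 403 in LM and 329 and 361 in UM. The p75 arrays were the 2 lowest. Fgfr2, whose splice forms bind ligands of mesenchyme or of epithelium, had 388 and 283 in the p75 mutant and control, 603 and 758 in OFT, 421 and 504 in LM and 503 and 397 in UM. The OFT arrays were the 2 highest and the p75 arrays the 2 lowest. Fgfr3, a receptor known for restraining bone growth, had 127 and 183 in the OFT mutant and control, against 64.4 and 45.2 in the LM mutant and control and 75.1 and 76.8 in the UM mutant and control. It had 103 and 111 in p75, so that the order ran OFT, p75, UM, LM with no overlap between origins. Neighbours in this order were not told apart in the tests below.

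Spry1 stood apart in the sorted crest cells. Its intensity was 366 in the p75 mutant and 450.4 in the p75 control, 101 and 131 in the OFT mutant and control, 169 and 186 in LM, and 199.8 and 168 in UM. Both p75 arrays lay above the other 6, and both OFT arrays below. Spry2 was flat beside it, at 314 and 316 in the p75 mutant and control, 368 and 334 in OFT, 365 and 359 in LM and 399.6 and 369 in UM. The distance between highest and lowest array was 1.86 log2 units for Spry1 and 0.32 for Spry2, the widest and narrowest among the 10 members.

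**Figure D1:**
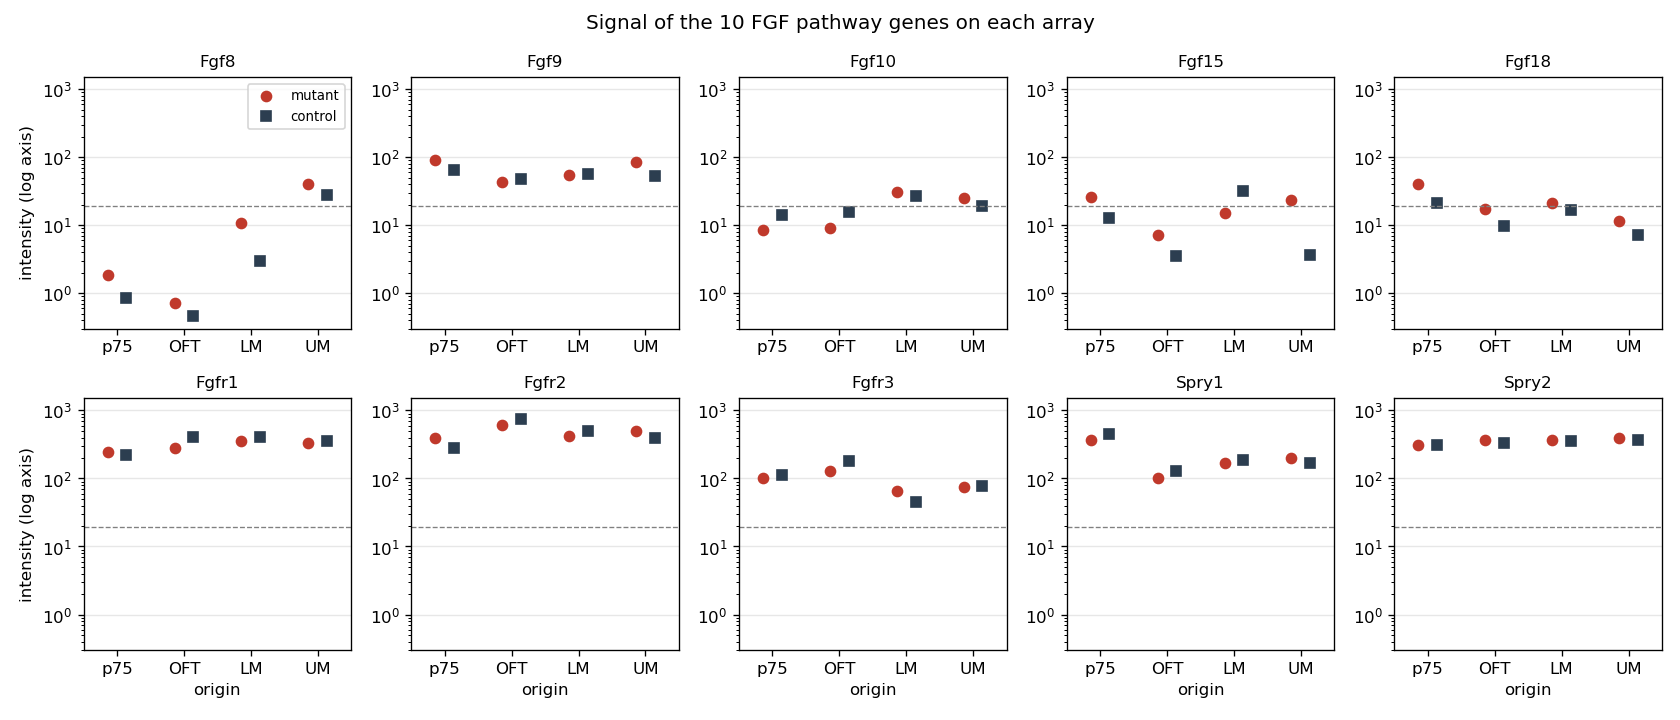
Intensity (log axis) of each member's brightest probe set on the mutant (circle) and control (square) array of each origin, with the filter level of 19.4 dashed. Spry1 is highest in p75, Fgf8 in UM and Fgfr3 in OFT.

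Origins were compared on the scale of log2(intensity + 32), on which differences of dim genes are understated, with limma over all 13543 genes. The mutant and control arrays of an origin served as its 2 arrays, so the p-values rest on how arrays of different genotype agree within an origin and not on replicate samples of 1 condition. Errors after ± are the moderated SE of limma. In these tissue samples fewer cells of a type and less RNA per cell cannot be told apart.

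The first comparison set the sorted crest cells against the mean of the 3 unsorted origins. Spry1 was higher in p75 by 1.22 ± 0.15, 2.33-fold (limma, adjusted p = 6.49e-05), and Fgf18 by 0.45 ± 0.14 (adjusted p = 0.0224). Fgfr2 was lower, at -0.60 ± 0.18 (adjusted p = 0.0141), as was Fgfr1, at -0.54 ± 0.16 (adjusted p = 0.0131), and Fgf8, at -0.39 ± 0.14 (adjusted p = 0.0436). So 5 of 10 members passed the threshold of 0.05, 2 higher and 3 lower, and the background was of the same size: 47.3% of all genes tested passed it, 28.3% higher and 19.0% lower. Fgf8 entered the test through the UM arrays alone, where it is high, and 2 of the 3 arrays through which Fgf18 entered were p75 arrays, so these calls are descriptions (adjusted p = 0.0453 and 0.0239 with no filter). Of the 6 members above the filter level on all arrays 3 passed, Spry1, Fgfr1 and Fgfr2. Fgf9, Fgf10, Fgf15, Fgfr3 and Spry2 did not pass, with differences of -0.28 to 0.30.

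Spry1 passed under all 15 alternative settings, with adjusted p of 1.89e-05 to 0.00596. Fgf8 passed under 6 of 15, and lost its call without either p75 array, either OFT array, the LM mutant or the UM mutant, at adjusted p of 0.0627 to 0.299. Fgf18 passed under 12 of 15, and not without the p75 mutant (adjusted p = 0.278) or the OFT mutant (adjusted p = 0.0518). Fgfr1 and Fgfr2 lost their calls without the p75 control array, with adjusted p of 0.228 and 0.281.

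The receptor differences depended on the probe set. Of the 10 members, 5 had several probe sets, and 3 of these were the receptors. A second probe set of Fgfr2, 1420847_a_at, had 14.1 in the p75 mutant and 35.4 in the p75 control, against 271 to 416 on the other 6 arrays. It was 6.69-fold lower in p75, at -2.74 ± 0.18 (limma over 25637 probe sets, adjusted p = 4.35e-07). The third, 1443211_at, was dim, at 4.04 to 24.9, and differed by 0.25 (adjusted p = 0.196), opposite in sign to the others. For Fgfr1, the probe set 1425911_a_at had 48.0 in the p75 mutant and 60.0 in the p75 control, against 237 to 309 elsewhere, 3.59-fold lower at -1.84 ± 0.15 (adjusted p = 2.04e-06), whereas 1436551_at differed by 0.00. The dimmer probe set of Fgfr3 gave -0.23, that of Fgf9 -0.10 and that of Spry2 0.12, each opposite in sign to the brightest and none past the threshold.

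Such spread between probe sets of 1 gene was common in this contrast. Among 3177 genes with several probe sets of mean intensity at least 100 in the unsorted origins, 39.3% had probe sets that differed by 1 log2 unit or more in the p75 contrast, against 2.8% in the OFT contrast. The spread of such probe sets was 1.31 for Fgfr1 and 2.14 for Fgfr2 in the p75 contrast, against 0.03 and 0.35 in the OFT contrast. The Gapdh ratios above moved with this contrast too, and their part in it was not tested. Spry1 had 1 probe set, so its difference could not be compared in this way.

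**Figure D2:**
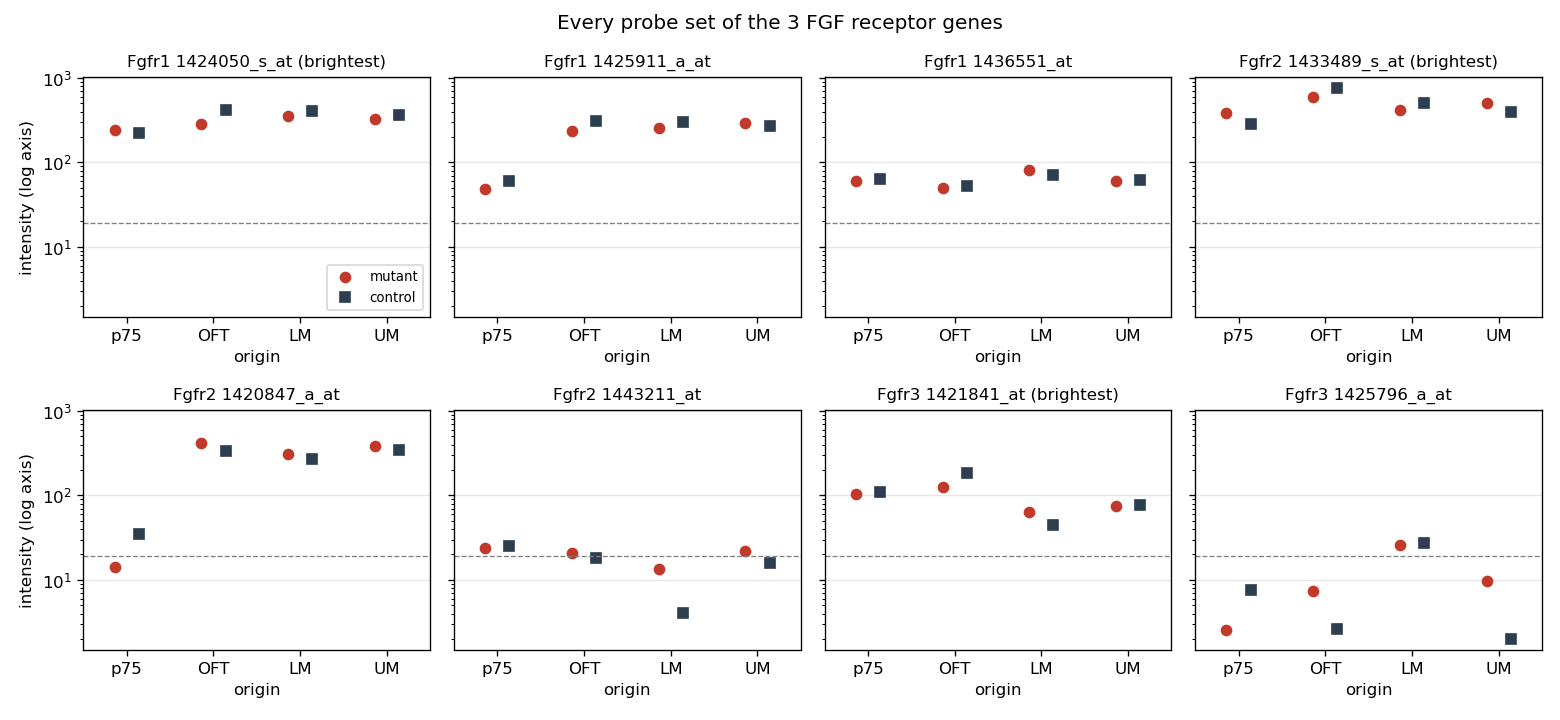
Intensity (log axis) of every probe set of Fgfr1, Fgfr2 and Fgfr3 by origin, mutant as circles and control as squares, with the filter level of 19.4 dashed. Fgfr2 1420847_a_at lies at 14.1 and 35.4 in p75, against 271 to 416 in the other origins.

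Markers of other cells moved with the same contrast. Of 4 glial and migratory crest markers on the array, 4 were higher in p75, with summed intensities of 5480 in the p75 mutant and 4392 in the p75 control, against 290 to 706 elsewhere. Among them is Ngfr, which encodes p75, so its call follows from the sort and is a description. Of 10 epithelial markers 9 were lower, with sums of 568 and 679 in the p75 mutant and control, against 1757 to 3212. Of 8 neuronal markers 8 were higher, with sums of 3840.3 and 6643 in the p75 mutant and control, against 426 to 4120 elsewhere. Markers of several cell types thus differed at once. Of 5 tested neural progenitor markers 4 were higher, with sums of 3496 and 3421 over the list in the p75 mutant and control, against 393 to 1317 elsewhere. Of 4 skeletal muscle markers 3 were higher, with sums of 1290.5 and 686, against 48.1 to 601. Endothelial markers were lower for 4 of 5, with sums of 207 and 195, against 460.3 to 1259.9, and Pecam1, 1 of these markers, was at 1.46 and 2.24. Macrophage markers were lower for 4 of 5, with sums of 77.0 and 111, against 120.1 to 304. Heart muscle markers were lower for 5 and higher for 1 of 8, smooth muscle markers lower for 1 and higher for 2 of 4, and mesenchyme markers lower for 3 and higher for 2 of 7. Cnn1, the smooth muscle marker that was lower, was above the filter level on the OFT arrays alone. Myl7, lower among the heart muscle markers, was above it on these and the p75 control. Pecam1 and the macrophage markers Ptprc, C1qa and Lyz2 were above the filter level on unsorted arrays alone. All of these calls are descriptions. Marker counts here are to be read beside 28.3% of all genes higher and 19.0% lower. The part of these cells in the member differences was not tested.

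The second comparison took OFT over LM and UM averaged. Fgfr3 was higher in OFT by 0.94 ± 0.17 (limma, adjusted p = 0.00298). Fgf8 was lower, at -0.63 ± 0.15 (adjusted p = 0.0155), and Spry1 was lower, at -0.53 ± 0.16 (adjusted p = 0.0464). Thus 1 member passed higher and 2 passed lower, 3 of 10, beside 15.2% of all genes tested, 11.3% higher and 3.88% lower. The call for Fgf8 is a description too, since UM, in which it passed the filter, is part of the comparison (adjusted p = 0.0209 with no filter). Of the 6 members above the filter level on all arrays 2 passed, Fgfr3 and Spry1. Fgfr2 had a difference of 0.54 ± 0.19 that did not pass (adjusted p = 0.071), and the other 6 members had differences of -0.40 to -0.01.

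The call for Fgfr3 held under 14 of 16 alternatives and was lost without the OFT control array (adjusted p = 0.164). Its other probe set, 1425796_a_at, was above the filter level on the LM arrays alone, at 26.2 in the mutant and 27.3 in the control, and gave -0.35 (adjusted p = 0.195). Fgf8 passed under 13 of 16, and not without the OFT mutant (adjusted p = 0.202) or the OFT control (adjusted p = 0.12). Spry1 passed under 5 of 16, and was lost without either OFT array, either p75 array, either LM array or the UM mutant, with adjusted p of 0.0626 to 0.346. Markers of other cells moved with this contrast as well. Heart muscle markers were higher in OFT for 7 of 8, and Myl7, an atrial myosin light chain, lay at 0.797 to 2.20 in LM and UM. Smooth muscle markers were higher for 4 of 4, with sums of 6122 and 5616 in the OFT mutant and control, against 110.1 to 947 in LM and UM. Of these, Cnn1 was above the filter level on the OFT arrays alone, and Myh11 on these and the UM mutant. Myl7 was above it on the OFT arrays and the p75 control. The calls for these genes are descriptions. Marker counts here are to be read beside 11.3% of all genes higher and 3.88% lower. Neuronal markers were higher for 5 of 8, with sums of 2422 and 4120 in the OFT mutant and control, against 426 to 1678. Of these, Prph was above the filter level on the OFT and p75 arrays alone, so its call is a description. Markers of several cell types thus moved at once. Endothelial markers were higher for 5 of 5, with sums of 1001 in the OFT mutant and 1259.9 in the OFT control, against 460.3 to 522 in LM and UM. Epithelial markers were higher for 1 and lower for 3 of 10, with sums of 2109 and 2151 in the OFT mutant and control, against 1757 to 3212. Glial and migratory crest markers were higher for 2 of 4, and mesenchyme markers higher for 2 and lower for 2 of 7. Macrophage markers were higher for 1 of 5 and skeletal muscle markers for 1 of 4. The macrophage call, C1qa, was above the filter level on the OFT arrays and the UM mutant alone and is a description. Lower were 1 of 5 tested neural progenitor and 1 of 3 tested erythroid markers. The part of all these cells was not tested.

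LM and UM, the third comparison, differed less. No member passed the threshold, beside 1.56% of all genes tested, and 1 member, Fgf8, had an unadjusted p below 0.05. Fgf8 was at -0.76 ± 0.18 in LM against UM (limma, adjusted p = 0.0621). It entered the test through the UM arrays alone, where it is high, so this value is a description as well. The other 9 members had differences of -0.32 to 0.31. Markers of other cells differed here too. Skeletal muscle markers were higher in LM for 4 of 4, heart muscle markers for 3 of 8 and smooth muscle markers for 1 of 4. Lower in LM were 3 of 10 epithelial, 3 of 8 neuronal, 2 of 5 tested neural progenitor and 1 of 7 mesenchyme markers. These counts are to be read beside 1.56% of all genes called either way, since shares by direction are not given here. Epithelial sums were 1848 and 1757 in the LM mutant and control, against 3212 and 2717 in UM. The part of these cells was not tested.

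**Figure D3:**
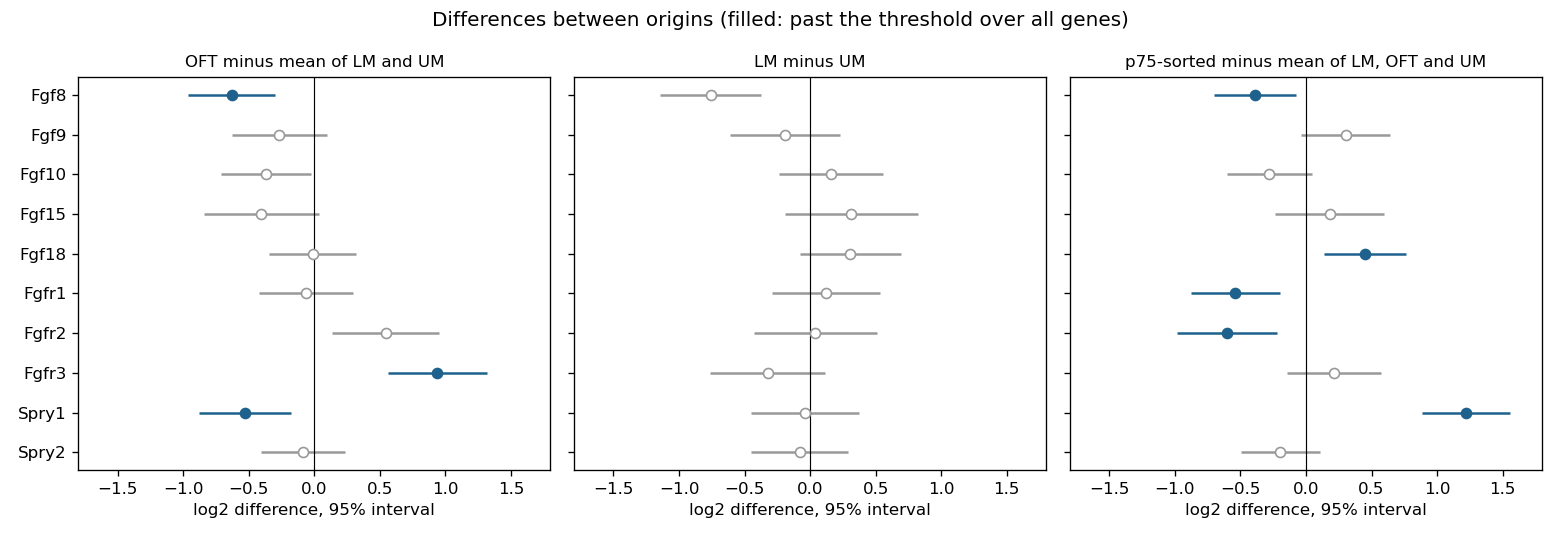
Log2 differences of the members with 95% intervals in the 3 comparisons of origins, filled where the adjusted p over all genes was under 0.05. Spry1 is at 1.22 in the p75 comparison and Fgfr3 at 0.94 in the OFT comparison.

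Origin by origin, the members could seldom be ranked beyond the error. Of 30 neighbouring pairs in the order of mean levels, 1 was told apart: Spry1 in p75 over UM, by 1.02 ± 0.19 (limma, adjusted p = 0.00111). Pairs further apart in the order gave more calls. Against OFT, p75 had 2 members called, Spry1 at 1.57 and Fgfr2 at -0.96, beside 34.7% of all genes. Against LM, p75 had 4 called, Spry1 at 1.06, Fgfr3 at 0.69, Fgfr1 at -0.62 and Fgf10 at -0.48, the last at an adjusted p of 0.0497, beside 42.0% of all genes. Against UM, p75 had 3 called, Spry1 at 1.02, Fgf18 at 0.60 and Fgf8 at -0.98, beside 42.0% of all genes. Spry1 was thus the 1 member called in p75 against each of the other origins. OFT against LM had 1, Fgfr3 at 1.10, beside 11.0%, and OFT against UM had 2, Fgfr3 at 0.78 and Fgf8 at -1.01, beside 12.1%. The pairs of Fgf8 with UM, of Fgf10 with LM and of Fgf18 with p75 hold the arrays through which these genes passed the filter.

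The effect of the FAK mutation was asked of all 4 origins together. No member passed the threshold, and neither did any of the 13543 genes tested, a background of 0%. At an unadjusted p below 0.05 there were 410 genes and 0 members, and the smallest adjusted p over all genes was 0.75. Mutant minus control was 0.24 for Fgf18, 0.18 for Fgf15, 0.17 for Fgf9, 0.16 for Fgf8, 0.06 for Spry2, 0.04 for Fgfr2, -0.03 for Fgf10, -0.05 for Fgfr3, -0.12 for Spry1 and -0.17 for Fgfr1. Fgf8 and Fgf18 were higher in the mutant array in 4 of 4 pairs, a pattern that was not counted over all genes. The pairs of Fgf8 in p75 and OFT differed by 0.04 and 0.01, at intensities below the filter level. The 95% intervals of all 10 members lay within -0.46 to 0.54. No member passed under any of 17 alternatives. Fgf10, Fgfr2 and Fgfr3 changed sign in 5, 5 and 3 of these.

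Within an origin there was 1 array a genotype, and the differences carry no test. Differences of 2-fold or more on the log2(intensity + 32) scale were seen for 0 members in every origin, beside 0.406% of all genes in p75, 0.199% in OFT, 0.569% in LM and 0.222% in UM. The widest were Fgf15 in UM, at 0.63, and Fgfr1 in OFT, at -0.49. In UM 8 of 10 members were higher in the mutant, with a median of 0.19, beside 0.04 over all genes. In OFT 6 of 10 were lower, with a median of -0.15, beside -0.05 over all genes. In p75 the counts were 6 higher and 4 lower, and in LM 5 and 5.

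**Figure D4:**
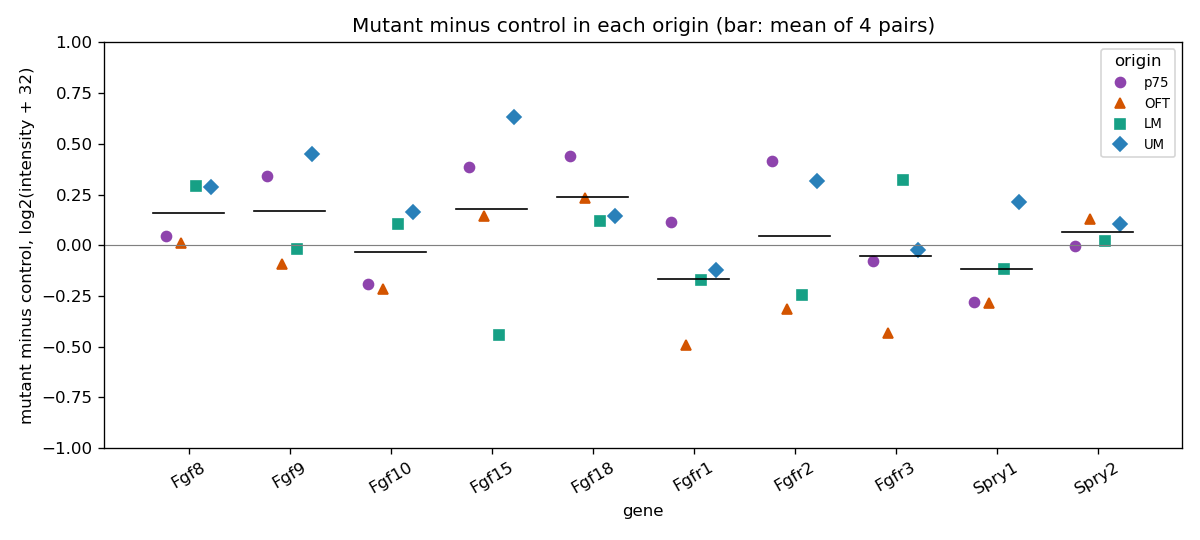
Mutant minus control on the log2(intensity + 32) scale for each member in each origin, with a bar at the mean of the 4 pairs. Points lie between -0.49 and 0.63. Fgf8 and Fgf18 have all 4 above 0, those of Fgf8 in p75 and OFT at 0.04 and 0.01.

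The wider pathway was read from lists of 68 genes, of which 61 were on the array and 51 were tested. In the p75 comparison 25 of these passed, 16 higher and 9 lower, beside 47.3% of all genes, 28.3% higher and 19.0% lower, and each list count in this comparison is to be read against these shares. Their median was 0.11, beside 0.07 over all genes. Of the 25, 17 had several probe sets, and 9 of these had all probe sets in the same direction. Among the 9 tested targets and feedback inhibitors 3 were higher and 2 lower. Dusp4, a nuclear phosphatase of the MAP kinases, was higher by 2.02 ± 0.14 (limma, adjusted p = 1.16e-06), with 484 in the p75 mutant and 490.2 in the p75 control, against 68.0 to 126 elsewhere. Spred2 and Spred1, relatives of Sprouty that inhibit the RAS pathway, were higher by 0.75 and 0.72. Other probe sets gave -0.86 to 0.12 for Spred2 and -0.92 to 0.66 for Spred1. Dusp6, an ERK phosphatase, was lower at -0.58, and both probe sets of Etv4, an ETS factor induced by FGF that is named after its values were seen, were lower, the brighter at -0.57. Etv5, also named after its values were seen, was not called from its brightest probe set, at -0.09. Its other probe sets were lower, at -0.93 and -1.26 (limma over 25637 probe sets, adjusted p = 0.000385 and 0.000125). Dusp4 and Dusp6 had 1 tested probe set each. No other secreted ligand passed, 0 of 5 tested.

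Fgfr4, the fourth FGF receptor, was higher in p75 by 1.48 (limma, adjusted p = 8.8e-05). It had 113 in the p75 mutant and 78.0 in the p75 control, against 1.01 to 27.0 elsewhere. It was above the filter level on the p75 arrays and the LM mutant alone, so this call is a description. Its other probe set gave 0.40 (adjusted p = 0.138). Of the FLRT proteins, which bind FGF receptors, Flrt2 was at 0.48, Flrt1 at 0.47 and Flrt3 at -0.82. Other probe sets gave 0.52 and 0.13 for Flrt2 and -0.16 for Flrt3. Of 11 tested signal transducers 6 were higher and 2 lower, led by Gab1, an adaptor, at 1.97, with another probe set at -1.34, and by Map2k2 at 1.31, Plcg1 at 1.24 and Map2k1 at 1.17. Other probe sets gave 0.49 for Map2k2 and -0.0041 for Plcg1, neither past the threshold, and Map2k1 had 1 probe set. Of 13 genes of heparan sulfate and ligand binding 4 were higher and 1 was lower. Ext2, which builds the chain, was at 1.48 and Hs2st1, which sulfates it, at 0.97, while Gpc3, a glypican, was at -0.88. Ndst2, another sulfating enzyme, was at 0.55. The other probe set of Ext2 gave -0.17 (adjusted p = 0.378), and those of Hs2st1 gave 0.17 to 0.69.

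In the OFT comparison 10 of the 51 passed, 4 higher and 6 lower, beside 15.2% of all genes, 11.3% higher and 3.88% lower. Of the 6 lower, 4 were the jaw mesenchyme genes described below, and the others were Sdc1 and Dusp6. Their median was 0.15, beside 0.01 over all genes. Fgfrl1, a receptor relative without a kinase domain, was higher by 1.10 ± 0.16 (limma, adjusted p = 0.000444), with 657 in the OFT mutant and 637 in the OFT control, against 223 to 344 in LM and UM. Both of its probe sets passed. Fgf5, Fgf13 and Hs6st2 were higher by 0.75, 0.62 and 0.51. Other probe sets gave 0.05 for Fgf13 and -0.15 for Hs6st2, neither past the threshold. Sdc1, a cell surface proteoglycan, was lower at -0.86 (adjusted p = 0.00717), and its other probe sets gave -0.93, -0.19 and -0.09. Dusp6 was lower at -0.82 ± 0.17 (adjusted p = 0.0055), with 572 in the OFT mutant and 669 in the OFT control, against 823 to 1458 in LM and UM. It was the 1 call among the 9 targets and feedback inhibitors.

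Genes that FGF8 is reported to induce in jaw mesenchyme were lower in OFT than in LM and UM, 4 of 4. This count is to be read beside 3.88% of all genes lower in OFT. Of 7 mesenchyme markers, 2 were lower and 2 higher in the same comparison. The part of cell types in these differences was not tested. Lhx8, a LIM homeobox factor, was lower by 3.03 ± 0.16 on the log2 scale, 8.20-fold (limma, adjusted p = 9.19e-08), with 79.8 in the OFT mutant and 73.8 in the OFT control, against 709 to 1101 in LM and UM. Lhx6 was at -1.63, Barx1 at -1.52 and Pax9 at -0.81. In the p75 comparison 3 of the 4 were lower, Lhx8 at -1.61, Lhx6 at -1.07 and Pax9 at -0.73. The other probe sets were lower as well, at -0.58 for Lhx6 and at -1.25 for Pax9, and the third of Pax9 gave -0.35 (adjusted p = 0.0663). Between LM and UM, 2 genes of the lists passed, beside 1.56% of all genes. Barx1 was higher in LM by 1.07 and Pax9 lower at -1.06. In the mutant comparison none of the 51 passed, and their median was -0.05 beside -0.01 over all genes.

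**Figure D5:**
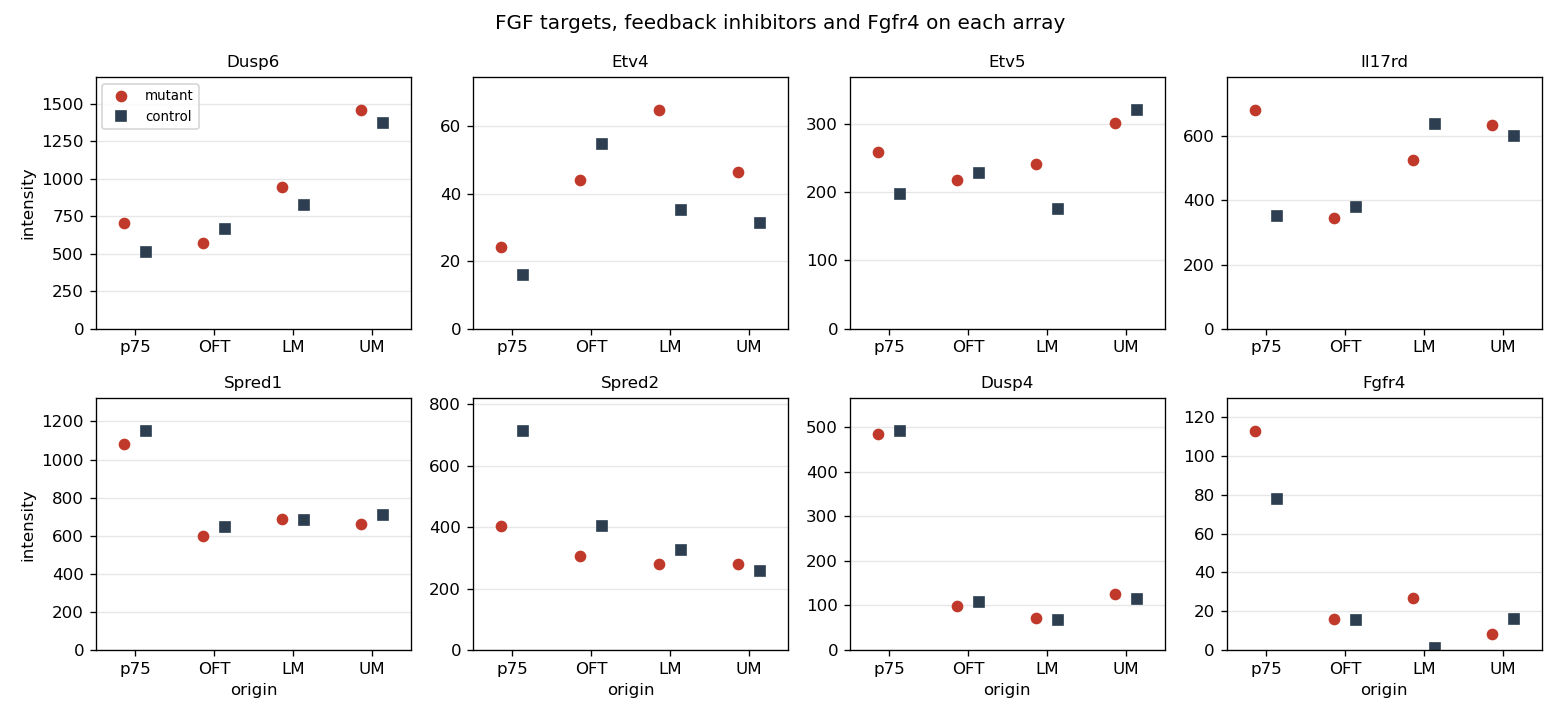
Intensity of targets, feedback inhibitors and Fgfr4 by origin, mutant as circles and control as squares, each axis starting at 0. Dusp4 and Fgfr4 are highest in p75, and Dusp6 is highest in UM.

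Of the members 4, Fgf8, Fgfr2, Fgfr3 and Spry1, spanned at least 1 log2 unit over the 8 arrays and were compared with the 5402 tested genes that did so, by Pearson's r over 8 arrays. The arrays share origin, so r describes these arrays and carries no test. Spry1 was most like Psat1 (r = 0.99), Angptl4 (0.99) and Recql4 (0.98). Fgf8 was most like Hs3st6 (0.97), Alx1 (0.97) and Cped1 (0.96), Fgfr3 like Arhgap44 (0.98), Arfgef3 (0.98) and Ret (0.97), and Fgfr2 like Myh9, Zfc3h1 and Fnip2 (0.97 each).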

How the data were processed

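The authors deposited 1 linear intensity per probe set for 45101 probe sets, and the software and scaling behind them are not given in the sources used here. Trimmed at percentiles 2 and 98, the arrays all averaged 150.0, and no further scaling was applied. Probe sets annotated to exactly 1 gene (34945) were kept, those with several genes (932) and the control probe sets were left out, and 9211 probe sets not listed stayed unnamed. Genes were fitted as log2(intensity + 32) with limma 3.58.1 in R 4.3.3, with terms for origin and genotype and 3 residual degrees of freedom, and p-values were adjusted by Benjamini-Hochberg over all genes tested. The code was tested on simulated data. Pairing of mutant and control arrays comes from the shared origin; their deviations from the genotype means correlated at 0.618 to 0.878. No origin and genotype had a replicate, so the number of arrays limits the precision. Named genes were all members and, of each other list, up to 4 past the threshold with the largest difference. Other genes are counted, apart from Etv4, Etv5 and markers named for the arrays on which they passed the filter level. The members and lists were chosen with earlier results of these data known. Alternatives changed the pseudocount, filter, scaling, probe set choice, variance trend, origin block and arrays. Promoter windows are from RefSeq on GRCm38.p6.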

Additional observations from a re-analysis of the deposited data

How the results depend on the processing

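Of the differences of single members under the alternative settings, 579 kept their direction and side of the threshold, 31 fell short of it, 4 passed it newly and 26 changed sign, all of them short of the threshold before and after. With 1 array left out, members called ran from 0 to 3 in the OFT comparison (0 without the OFT control, 1 without the OFT mutant) and from 2 to 5 in the p75 comparison (2 without the p75 control). All genes called ran from 624 to 2144 for OFT, 110 to 223 for LM against UM, 3269 to 6457 for p75 and 0 to 1 for mutant against control, with the 1 appearing without an LM array. At a pseudocount of 1, 999 genes passed for OFT and 64 for LM against UM, against 2060 and 211 at 32. At a pseudocount of 64, 3 members passed for p75. With probe sets averaged by gene, 1 member passed for LM against UM. Neighbouring origins told apart were 2 at a pseudocount of 1, 2 at 64, 2 with a variance trend and 4 with probe sets averaged. At a pseudocount of 1, 2 members in LM and 1 in UM differed 2-fold or more between genotypes. Without the replicate block of origins, 0 members and 0 genes passed for mutant against control. With 1 array left out, those that changed sign ran, for mutant against control, from -0.0997 to 0.0269 for Fgf10, -0.0807 to 0.163 for Fgfr2 and -0.178 to 0.0734 for Fgfr3. For OFT they ran from -0.0509 to 0.0254 for Fgf18 and -0.28 to 0.149 for Fgfr1. For LM against UM they ran from -0.0997 to 0.728 for Fgf15, -0.152 to 0.232 for Fgfr2 and -0.26 to 0.181 for Spry1. Without both p75 arrays, mutant against control was 0.0196 for Fgf10 and -0.0807 for Fgfr2. Fgf18 in OFT was 0.0539 with quantile normalization and 0.028 with median scaling. With probe sets averaged, Fgfr3 was 0.005 for mutant against control, 0.16 for LM against UM and -0.0081 for p75, and Fgfr2 and Spry2 were -0.202 and 0.0544 for LM against UM. With a dimmer probe set, an alternative added after seeing the data, 12 differences changed sign. Fgfr3 was -0.35 for OFT, 0.0632 for mutant against control, 0.643 for LM against UM and -0.229 for p75. Fgfr2 was 0.25 for p75 and -0.311 and -0.333 for LM against UM. Fgfr1 was 0.0073 for mutant against control and -0.0094 for LM against UM, Spry2 0.188 for LM against UM and 0.123 for p75, and Fgf9 -0.0986 for p75. The causes were not tested. Low signal is 1 limit: Fgf8 was above the filter level on 2 arrays, and Fgf10, Fgf15 and Fgf18 on 3 each.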
